A study of Mus musculus with 18 samples.

Results

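Ribosome biogenesis factors and subunits of RNA polymerase I were examined in 18 single mouse 2-cell embryos. Genes were taken by their symbol in the platform annotation. The symbols were those that begin with Utp, Nop, Rrp or Polr1 followed by a number or letter, Nol6 to Nol12, Imp3, Imp4, Wdr12, Pes1, Bop1, Tsr1, Ltv1, Nob1, Fbl, Ncl, Dkc1 and Bms1. This gave 49 genes of the 19935 genes that had a probe set naming that gene alone. Each gene was read through its brightest such probe set over all embryos. 46 of the 49 had 1 probe set of this kind, and 5 further probe sets that name a member together with another gene were not used. All 49 lay above 6.47, the median of the probe set means on the log2 scale, and are called bright.

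All embryos had wild-type mothers of the strain 129SVE (=129S6/SvEvTac, Taconic) and came from natural matings. 9 embryos were sired by 3 wild-type males (fathers WT1, WT2 and WT3) and 9 by 3 Parg(110)-/- males (fathers PargA, PargB and PargC), with 3 embryos a father, and an embryo is written as its father and its number. Parg codes for the glycohydrolase that breaks down poly(ADP-ribose). The offspring of mutant males lack exons 2 and 3 of Parg on the paternal copy (Parg(110)-/+), so what came through the sperm and what came from the embryo's own genotype cannot be told apart. RNA of each whole embryo was amplified with the WT-Ovation One-Direct kit and read on 1 Affymetrix Mouse Gene 1.0 ST array. Transcripts stored by the oocyte and transcripts made by the embryo are read together, and less RNA of a kind from both cells or from 1 cell cannot be told apart.

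Ribosomes are built in the nucleolus. RNA polymerase I transcribes the rDNA repeats into a long precursor, small nucleolar ribonucleoproteins (snoRNPs) modify it, and the small subunit processome folds and cleaves it to release the precursor of the small ribosomal subunit. Other factors build the large subunit, and late factors finish the small one in the cytoplasm. In mouse embryos the nucleolus starts as a compact precursor body without rRNA synthesis, and rDNA transcription resumes with genome activation at the 2-cell stage.

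Pearson's r between pairs of arrays, across all probe sets, was 0.924 to 0.958. PargB-1 stood apart, with an r of 0.924 to 0.944 to the other arrays, so several results that rest on it are given with and without it. The counts by role and the genotype differences of the further lists of genes are given only with it. Its log2 values also had the smallest SD of all arrays (2.04, the others 2.05 to 2.11). The mean of its bright probe sets minus that of WT was -0.03, the lowest of all embryos. For its probe sets that are not bright this difference was 0.07, as in PargB-3. All members are bright, and the part of this narrower spread in their low values in PargB-1 was not tested. Markers of the oocyte and the 2-cell embryo were present: 14 of 19 listed markers had a probe set of their own and all 14 were bright. Their mean level lay between 10.51 and 11.25 in WT and between 10.44 and 11.37 in Parg(110)-/+ embryos. The mean levels of the marker lists of cumulus, granulosa and oviduct cells (9 of 11 measured), blood (6 of 8) and sperm (7 of 7) stayed between 5.09 and 6.26 in all embryos. Of the measured markers 3, 0 and 3 were bright. RMA values have no true zero, so none of these markers is read as absent. Between the genotypes 8 of 9 cumulus, granulosa and oviduct markers, 6 of 6 blood markers and 7 of 7 sperm markers were higher in Parg(110)-/+ embryos, by medians of 0.13, 0.11 and 0.11, and 0 of them were called. Most probe sets were higher too, as 32.9% of all were lower and their median difference was 0.05. The mean of the probe sets that are not bright lay 0.02 to 0.07 above that of WT in every Parg(110)-/+ embryo. At an unadjusted p under 0.05 with limma, 4, 1 and 1 were higher and 0 were lower. At this level were 3018 of all 28815 probe sets in either direction, of which 435 were lower. The part of these markers in the results was not tested.

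No member passed the test between the genotypes, with 0 of 49 called by limma at an adjusted p under 0.1 (lowest adjusted p = 0.362), where 0 of all 28815 probe sets were called (0%). A plain one-way analysis of variance called 0 members as well. The direction was uneven. 36 members were lower and 13 higher in Parg(110)-/+ embryos, or 73.5% lower, against 32.9% of all probe sets and 41.4% of bright ones. The median difference of the members was -0.10 on the log2 scale, where that of all probe sets was 0.05 and that of bright ones 0.04. At an unadjusted p under 0.05, 7 members (14.3%) were lower and 0 were higher. The background for lower probe sets at this level was 1.51% of all and 2.62% of bright probe sets. These 7 were Nol9, Polr1b, Nol10, Nop14, Rrp15, Utp6 and Rrp12. Without PargB-1 the median difference was -0.05 with 32 members lower, without PargB-1 and PargB-2 it was -0.04 with 27 lower, and without all embryos of PargB it was -0.02 with 29 lower. The skew of the members thus rested in part on the embryos of 1 father.

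**Figure D1:**
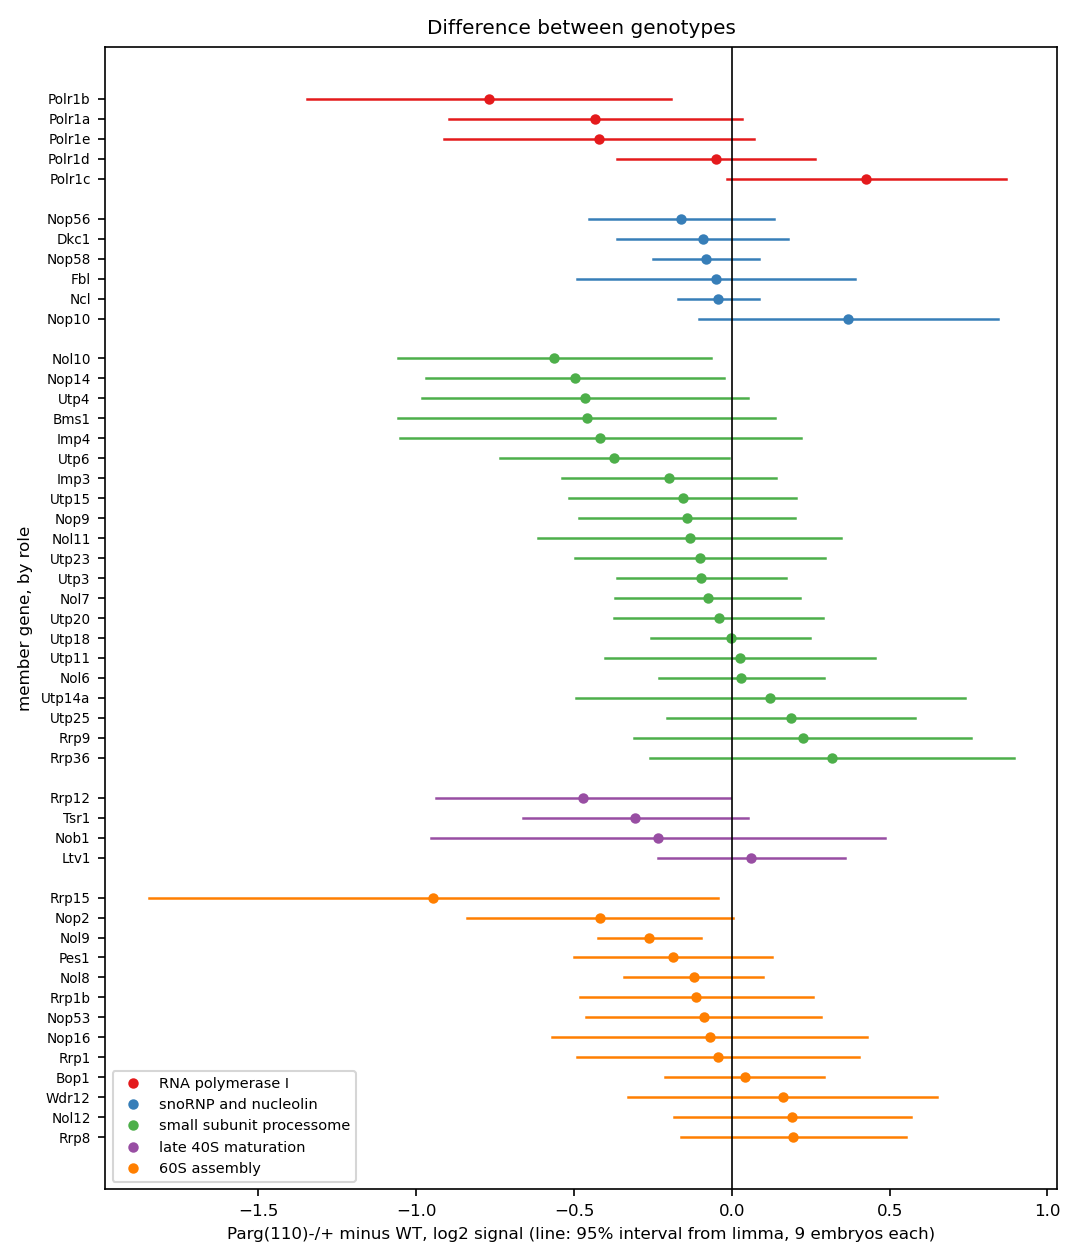
Difference between the genotypes for each of the 49 members, grouped by role; the x axis is Parg(110)-/+ minus WT on the log2 scale, points are differences and lines their 95% intervals from limma over 9 embryos each. 36 points lie below 0, and Rrp15, at -0.95, has the widest interval.

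Of the 5 subunits of RNA polymerase I with a Polr1 symbol, 4 were lower (median difference -0.42). 3 further subunits, Twistnb (Polr1f), Cd3eap (Polr1g) and Znrd1 (Polr1h), carry older symbols in the annotation that the choice of genes did not take. They were higher, by 0.13 ± 0.27, 0.16 ± 0.15 and 0.003 ± 0.12, so that 4 of all 8 measured subunits were lower and 4 higher, with a median difference of -0.02. Polr1b, the second largest subunit, measured 6.93, 7.58 and 8.92 (lowest, median and highest) in WT and 6.47, 6.98 and 8.30 in Parg(110)-/+ embryos. 8 of 9 Parg(110)-/+ embryos lay under the WT mean, PargA-3 at 8.30 being the exception, and the genotypes overlapped. The difference was -0.77 ± 0.27 (SE, n = 9 and 9, adjusted p = 0.395 with limma). It ran from -0.92 without PargA-3 to -0.64 without WT3-3. Polr1a, the largest subunit, which holds the catalytic centre, measured 7.45, 7.91 and 8.71 in WT and 6.94, 7.72 and 8.30 in Parg(110)-/+ embryos. PargB-1, PargB-3, PargC-3 and PargA-1 were below every WT embryo, and the difference was -0.43 ± 0.22 (SE, adjusted p = 0.496).

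Polr1c and Polr1d form the assembly platform that RNA polymerase I shares with RNA polymerase III. Polr1c was higher in Parg(110)-/+ embryos: it measured 9.40, 9.96 and 10.54 in WT and 9.51, 10.21 and 10.94 in Parg(110)-/+ embryos. 8 of 9 Parg(110)-/+ embryos were above the WT mean and 4 above every WT embryo, with a difference of 0.43 ± 0.21 (SE, adjusted p = 0.488). Polr1d measured 10.99, 11.68 and 12.10 in WT and 11.14, 11.64 and 12.01 in Parg(110)-/+ embryos, a difference of -0.05 ± 0.15, or 0.01 without PargB-1. Its second probe set had the opposite sign (0.38 ± 0.18) and a correlation of -0.25 with the first across the 18 embryos. Polr1d is counted above by its brighter probe set, and its direction depends on the probe set and on PargB-1. Polr1e, a subunit of the heterodimer that stimulates elongation, measured 10.72, 11.01 and 11.39 in WT and 8.85, 10.87 and 11.13 in Parg(110)-/+ embryos. PargB-1 alone was at 8.85, the next Parg(110)-/+ embryo was at 10.25, and the difference of all embryos was -0.42 ± 0.23 (SE, adjusted p = 0.524). Without PargB-1 it was -0.21.

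**Figure D2:**
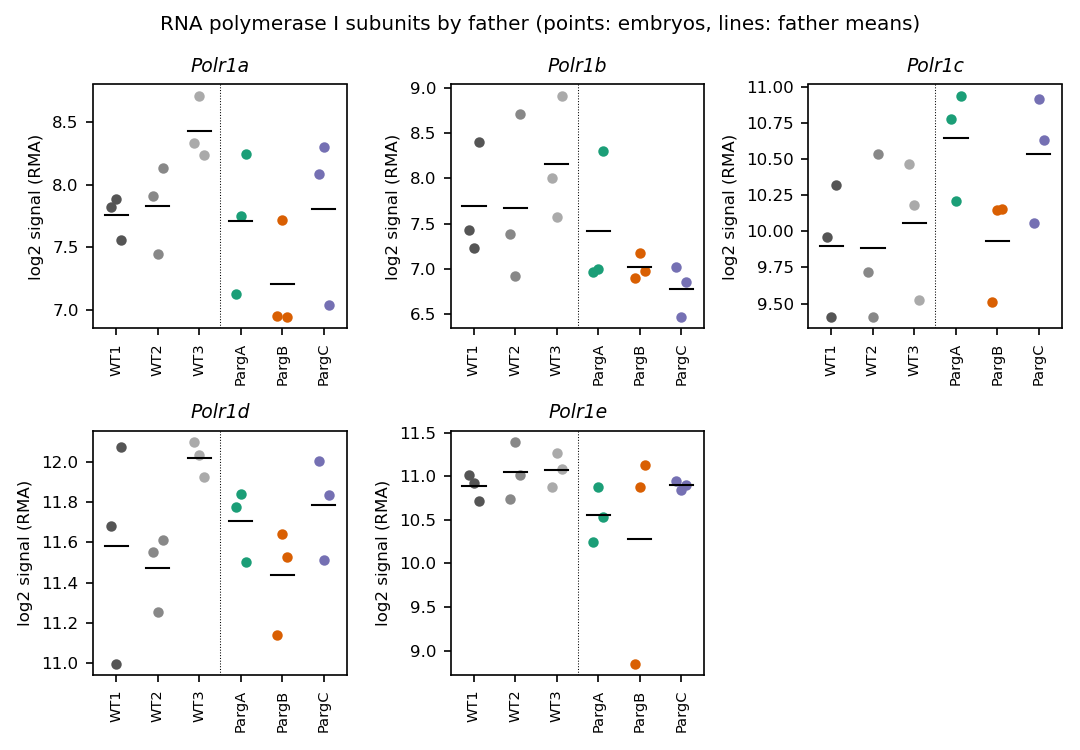
Log2 signal of the 5 subunits of RNA polymerase I with a Polr1 symbol by father, with 1 point per embryo and a line at each father's mean. Polr1b lay between 6.47 and 7.18 in all Parg(110)-/+ embryos but PargA-3, and the lowest Polr1e value was that of PargB-1 (8.85).

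The proteins of the snoRNPs and nucleolin had a median difference of -0.07 over 6 genes, and 0 of 6 had an unadjusted p under 0.05. Ncl (nucleolin), which binds the rRNA precursor, was the steadiest member, at 11.74, 11.91 and 12.04 in WT and 11.63, 11.84 and 12.06 in Parg(110)-/+ embryos (difference -0.04 ± 0.06). Fbl (fibrillarin), the methyltransferase of the box C/D snoRNPs, measured 10.83, 11.62 and 12.03 in WT and 10.35, 11.74 and 12.003 in Parg(110)-/+ embryos. Its lowest value belonged to PargB-1, and its difference was -0.05 ± 0.21, or 0.10 without PargB-1. The other probe set of Fbl, with a correlation of 0.25 to this one, had a difference of -0.17 ± 0.09. Dkc1 (dyskerin), the pseudouridine synthase of the box H/ACA snoRNPs, measured 10.35, 11.01 and 11.25 in WT and 10.49, 10.83 and 11.28 in Parg(110)-/+ embryos. The ranges overlapped almost in full, and the difference was -0.09 ± 0.13. Nop56 and Nop58 are core proteins of the box C/D snoRNPs. Nop56 measured 11.11, 11.59 and 11.83 in WT and 10.49, 11.37 and 11.74 in Parg(110)-/+ embryos, with PargB-1 alone under the WT range. Its difference was -0.16 ± 0.14, or -0.05 without PargB-1. Nop58 had a difference of -0.08 ± 0.08. Nop10, a small protein of the box H/ACA snoRNPs, exceeded the WT mean in 9 of 9 Parg(110)-/+ embryos (difference 0.37 ± 0.23, adjusted p = 0.554). Its WT embryos spread from 9.25 in WT2-2 to 11.51 with a median of 10.90, while the Parg(110)-/+ embryos lay between 10.93 and 11.41 with a median of 11.14, inside that range.

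Of the 21 factors of the small subunit processome 15 were lower and 6 higher, with a median difference of -0.10. Nol10, a nucleolar protein of the processome, measured 9.90, 10.30 and 10.65 in WT and 8.64, 9.53 and 10.71 in Parg(110)-/+ embryos. 5 of 9 were below every WT embryo while PargA-1, at 10.71, was above them all, and the difference was -0.56 ± 0.24 (SE, adjusted p = 0.443). Nop14, a core protein of the processome, measured 8.74, 9.15 and 9.72 in WT and 7.89, 8.81 and 9.66 in Parg(110)-/+ embryos, with 4 embryos below every WT embryo (difference -0.50 ± 0.22, adjusted p = 0.463). Utp6, a scaffold protein of the UTP-B module, was at 9.30, 9.45 and 10.16 in WT and at 8.38, 9.13 and 9.78 in Parg(110)-/+ embryos, and 5 of 9 lay under the WT range. The difference was -0.37 ± 0.17 and shrank to -0.28 without PargB-1. Utp4, a scaffold protein of the UTP-A module, measured 9.44, 9.87 and 10.78 in WT and 8.68, 9.60 and 10.60 in Parg(110)-/+ embryos (difference -0.47 ± 0.25, adjusted p = 0.505). The remaining processome factors overlapped between the genotypes, with differences from -0.46 ± 0.28 for Bms1 to 0.32 ± 0.27 for Rrp36.

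Several processome factors had like medians in both genotypes and long lower tails in Parg(110)-/+ embryos. Bms1, a GTPase, measured 9.09, 9.53 and 10.17 in WT and 7.72, 9.47 and 9.80 in Parg(110)-/+ embryos. Imp3 and Imp4 help the U3 snoRNA to pair with the rRNA precursor. Imp3 measured 11.42, 11.79 and 11.996 in WT and 10.66, 11.64 and 12.35 in Parg(110)-/+ embryos (difference -0.20 ± 0.16, or -0.09 without PargB-1). Imp4 measured 9.62, 10.47 and 11.17 in WT and 8.33, 10.41 and 10.73 in Parg(110)-/+ embryos (difference -0.42 ± 0.30). Nop9, an RNA-binding protein of the processome, ran past the WT range on both sides, at 9.63, 10.003 and 10.20 in WT and 9.09, 9.83 and 10.35 in Parg(110)-/+ embryos (difference -0.14 ± 0.16). Rrp36 had a long upper tail instead, at 7.00, 7.41 and 8.29 in WT and 6.73, 7.52 and 9.35 in Parg(110)-/+ embryos. Rrp9, Utp25 and Utp14a were also higher, by 0.22 ± 0.25, 0.19 ± 0.19 and 0.12 ± 0.29.

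Among the 4 late factors of the small subunit, 3 were lower (median difference -0.27). Rrp12, which takes part in the export of the subunit precursors, measured 8.03, 8.37 and 9.37 in WT and 7.43, 8.05 and 9.18 in Parg(110)-/+ embryos, with 8 of 9 under the WT mean (difference -0.47 ± 0.22, adjusted p = 0.472). Tsr1, a protein of the late 40S precursor related to translational GTPases, was at 9.52, 9.76 and 10.05 in WT and at 8.63, 9.61 and 9.99 in Parg(110)-/+ embryos. 4 of 9 embryos were below every WT embryo, 3 of them from PargB, and the genotype difference was -0.31 ± 0.17 (SE, adjusted p = 0.523). Nob1, the endonuclease that makes the last cut of 18S rRNA, and Ltv1, an export factor, had differences of -0.23 ± 0.34 and 0.06 ± 0.14.

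The 13 factors of the large subunit comprised 9 lower and 4 higher genes with a median difference of -0.09. Nol9, a polynucleotide kinase of the precursor of the large-subunit rRNAs, had the smallest p of all members. It measured 10.57, 10.77 and 10.96 in WT and 10.12, 10.62 and 10.73 in Parg(110)-/+ embryos, and 9 of 9 lay under the WT mean although 5 of them were inside the WT range. The difference was small and its spread narrow, at -0.26 ± 0.08 (SE, adjusted p = 0.362), and it ran from -0.29 without WT1-1 to -0.21 without PargC-2. Rrp15, a nucleolar factor of the large-subunit precursor, was also under the WT mean in 9 of 9 embryos. It measured 10.26, 11.06 and 11.18 in WT and 7.07, 10.32 and 10.84 in Parg(110)-/+ embryos. The difference was -0.95 ± 0.43 (SE, adjusted p = 0.465), and it was -0.59 without PargB-2. Nop2, a methyltransferase of the large-subunit rRNA, measured 8.61, 9.47 and 9.99 in WT and 8.29, 9.03 and 9.68 in Parg(110)-/+ embryos (difference -0.42 ± 0.20, adjusted p = 0.482). Pes1, Bop1 and Wdr12 form the PeBoW complex of large-subunit maturation, and their differences were -0.19 ± 0.15, 0.04 ± 0.12 and 0.16 ± 0.23. Another probe set of Wdr12 had a difference of -0.02 ± 0.28. Nol8, a nucleolar protein needed for rRNA processing, measured 10.84, 11.06 and 11.21 in WT and 10.26, 11.01 and 11.22 in Parg(110)-/+ embryos (difference -0.12 ± 0.10).

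The offspring of each mutant father were then compared with the 9 WT embryos, which these 3 comparisons share. The 3 embryos in a comparison have the same father, so its p-values measure the spread between embryos and not between fathers. The labels name no mother, litter or batch, so a difference of 1 father's embryos cannot be told apart from a difference of these. For PargB 1 member was called, Utp15, where 4 of all probe sets were called (0.0139%). For PargA (0%) and PargC (0.0104%) no member was called by limma. At an unadjusted p under 0.05, PargA had 2 members lower and 1 higher (6.12%), close to the 5.32% of all probe sets at this level. PargC had 5 lower and 4 higher (18.4%), where 7.24% of all probe sets were at this level. PargB had 15 lower and 0 higher (30.6%), against 2.05% of all probe sets that were lower at this level. In PargB 39 of 49 members were lower, with a median difference of -0.20, while that of all probe sets was 0.07. In PargA 28 members were lower (median -0.05) and in PargC 24 (median 0.03). The shares of all probe sets that were lower were 41.3% for PargA, 32.6% for PargB and 39.3% for PargC. Those of bright probe sets were 45.1%, 40.5% and 43.0%.

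Utp15 codes for a protein of the UTP-A module, the first module that binds the nascent rRNA precursor. Father WT1 had embryos at 11.11, 10.89 and 10.91. WT2 had them at 10.77, 11.01 and 10.78 and WT3 at 10.92, 10.78 and 10.84 (WT median 10.89). The embryos of PargA were at 11.08, 10.90 and 11.11 and those of PargC at 11.15, 11.02 and 11.17. The embryos of PargB were at 9.88, 10.22 and 10.06, below all other embryos, of which the lowest was at 10.77. The difference of PargB from WT was -0.83 ± 0.08 (SE, n = 3 and 9, adjusted p = 0.00119 with limma). It remained called when any 1 of the 18 embryos was left out, with an adjusted p of at most 0.0236, reached without PargB-1 (difference -0.75). PargA and PargC lay 0.14 ± 0.08 and 0.22 ± 0.08 above WT (adjusted p = 0.982 and 0.583), so the difference over all 9 Parg(110)-/+ embryos was only -0.16 ± 0.17.

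Tsr1 was the other member whose 3 PargB embryos all lay below the 9 WT embryos, which held for 2 members and for 0.264% of all probe sets. It was at 9.28, 8.63 and 8.76 in PargB, where the lowest WT embryo was at 9.52. Its difference was -0.87 ± 0.15 and did not pass the test (adjusted p = 0.136). Without PargB-1, and likewise without PargC-2, Tsr1 was called in PargB beside Utp15, where the share of all probe sets called was not taken. In PargA 1 member, Nol7, was below all WT embryos in its 3 embryos, against 0.239% of all probe sets, and in PargC 0 members were, against 0.253%.

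Rrp15 and Bms1 were low in PargB-1 and PargB-2 and not in PargB-3. Rrp15 measured 8.35 and 7.07 in these embryos and 10.28 in PargB-3, inside the WT range of 10.26 to 11.18. Bms1 measured 7.72 and 7.79 and then 9.47, with a WT range of 9.09 to 10.17. Their differences for PargB were -2.30 ± 0.43 (adjusted p = 0.136) and -1.28 ± 0.30 (adjusted p = 0.177). Without PargB-3 both were called, together with Nop9 and Utp15. This fit was chosen after seeing the data, and the share of all probe sets it called was not taken.

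**Figure D3:**
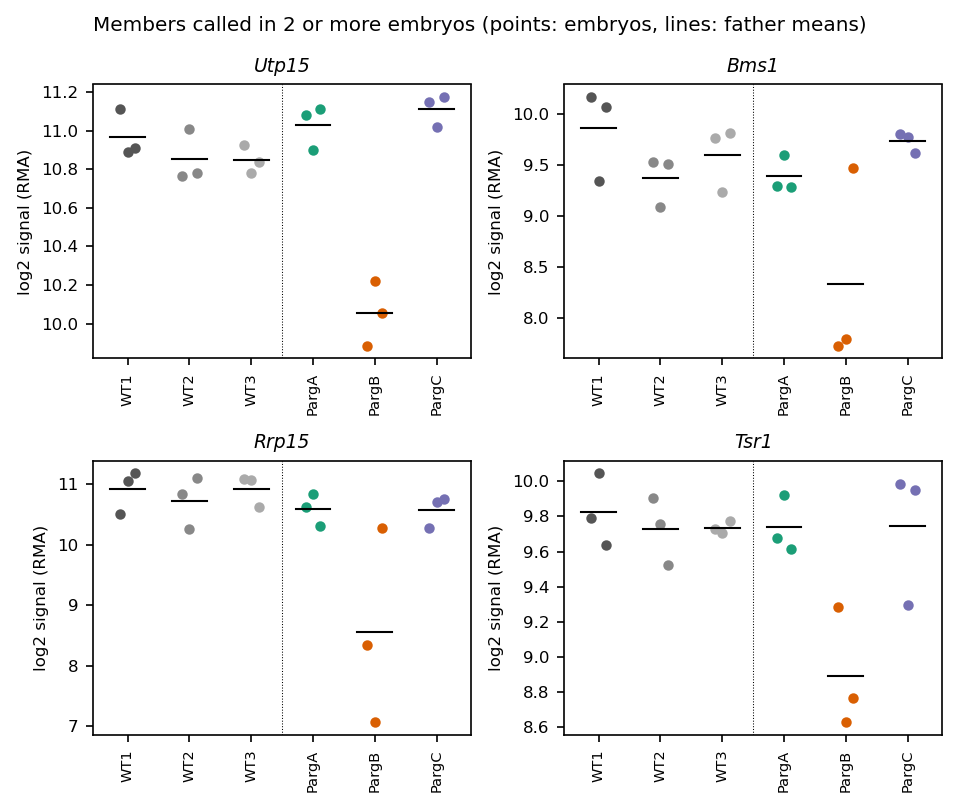
Log2 signal of the 4 members called in 2 or more single embryos, by father, with 1 point per embryo and a line at each father's mean. The 3 embryos of PargB are low for Utp15 (9.88 to 10.22) and Tsr1 (8.63 to 9.28), and PargB-1 and PargB-2 are low for Bms1 and Rrp15.

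The sequence before the start of these 4 genes is shown because they were low together in embryos of 1 father. It is the strand of the gene from RefSeq (GRCm38.p6), up to 250 bases before the start. Matches to 5 motifs are in capitals and all other bases in lower case. For Utp15 (chr13:98262993-98263075, minus strand) only the 83 bases next to the start are given, because the bases before them belong to Ankra2, the neighbouring gene that runs the other way. Those of Bms1 (chr6:118419418-118419667) and Rrp15 (chr1:186749359-186749608) are on the minus strand and that of Tsr1 (chr11:74897830-74898079) is on the plus strand.
Utp15: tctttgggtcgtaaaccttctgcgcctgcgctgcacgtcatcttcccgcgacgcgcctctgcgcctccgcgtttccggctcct
Bms1: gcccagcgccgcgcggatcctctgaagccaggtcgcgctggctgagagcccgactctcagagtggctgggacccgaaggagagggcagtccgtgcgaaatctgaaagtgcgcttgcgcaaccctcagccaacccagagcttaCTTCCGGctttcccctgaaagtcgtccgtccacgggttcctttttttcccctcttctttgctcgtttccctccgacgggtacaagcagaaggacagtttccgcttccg
Rrp15: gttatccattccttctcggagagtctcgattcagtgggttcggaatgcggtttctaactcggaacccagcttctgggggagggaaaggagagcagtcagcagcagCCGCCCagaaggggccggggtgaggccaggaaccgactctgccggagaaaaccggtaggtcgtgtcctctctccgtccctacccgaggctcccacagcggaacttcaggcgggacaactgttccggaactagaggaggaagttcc
Tsr1: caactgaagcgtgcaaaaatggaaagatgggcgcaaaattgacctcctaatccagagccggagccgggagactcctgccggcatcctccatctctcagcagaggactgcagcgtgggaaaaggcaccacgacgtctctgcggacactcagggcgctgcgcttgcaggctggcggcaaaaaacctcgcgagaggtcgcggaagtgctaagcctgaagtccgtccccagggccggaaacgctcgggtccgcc
The motifs were searched on both strands in the 250 bases before the start, none overlapping another in these 4 genes: CACGTG (E-box), GGGCGG (GC box), CCGGAAG (ETS), CCAAT and TATAAA. The capitals in Rrp15 are a GC box and those in Bms1 an ETS motif, each on the other strand. Tsr1 had no match. Utp15 had 2 GC boxes and 1 CCAAT in the bases that are not shown. No motif was found in all 4 genes. Of the members 41 had at least 1 promoter in the table, 49 promoters in all, and 57.1% of these held a GC box, against 32.7% of 32851 promoters. The ETS motif was in 22.4% of the members' promoters and 6.91% of all, the E-box in 10.2% and 6.02%, CCAAT in 26.5% and 33.8%, and TATAAA in 10.2% and 12.4%. The 32851 promoters include those of genes that are not bright, and no share among bright genes was taken. A match describes letters and is not a bound site.

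Each Parg(110)-/+ embryo was also set against the 9 WT embryos, with a lone embryo assumed to vary as WT embryos do. The 9 comparisons share the WT embryos. Members were called in all 3 embryos of PargB and in PargA-2. No member was called in PargA-1, PargA-3, PargC-1, PargC-2 or PargC-3, where the shares of all probe sets called were 0.628%, 0.604%, 0.76%, 0.625% and 0.843%. At an unadjusted p under 0.05 these 5 embryos had 6, 6, 8, 5 and 3 members in either direction, or 12.2%, 12.2%, 16.3%, 10.2% and 6.12%. The shares of all probe sets at this level were 5.23%, 5.87%, 8.6%, 5.92% and 5.86%.

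PargB-1 had the most. 9 of 49 members (18.4%) were called and all were lower, against 0.972% of all probe sets and 1.94% of bright probe sets called lower, and 2.17% called in either direction. 44 of 49 members were below the WT mean, where 41.2% of all and 46.4% of bright probe sets were. The median difference of the members was -0.55 and that of all probe sets was 0.05. Rrp15 was 5.70-fold lower than the WT mean (log2 difference -2.51 ± 0.32, adjusted p = 0.00368) and Polr1e 4.44-fold (-2.15 ± 0.23, adjusted p = 0.00123). Bms1 was 3.70-fold and Nol10 3.10-fold lower, with adjusted p-values of 0.0371 and 0.0235. Imp3 was at 10.66 against a WT range of 11.42 to 11.996 (2.14-fold lower, adjusted p = 0.0216). Utp15 was 2.01-fold lower (adjusted p = 0.00458). These 6 calls held when any 1 WT embryo was left out and under both other scalings. With the spread taken from all 18 embryos, which include the other PargB embryos, Rrp15 and Utp15 were no longer called and the other 4 were.

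The other 3 members called in PargB-1 were nearer to the threshold. Utp6 measured 8.38 against a WT range of 9.30 to 10.16 (adjusted p = 0.0785), Nop56 measured 10.49 against 11.11 to 11.83 (adjusted p = 0.0865), and Nop9 measured 9.09 against 9.63 to 10.20 (adjusted p = 0.0651). Utp6 and Nop56 each held in 3 of 9 fits that left out a WT embryo and Nop9 in 7 of 9. With the spread from all 18 embryos Nop56 was called and Utp6 and Nop9 were not. None of these 3 passed after a second quantile normalization (adjusted p = 0.149, 0.121 and 0.173). All 14 measured markers of the oocyte and 2-cell embryo were above the WT mean, with a median of 0.44 and 0 called, and their mean level of 11.37 was the highest of the 18 embryos. Their part in the result was not tested. The mean levels of the cumulus, granulosa and oviduct (6.15), blood (5.27) and sperm (6.01) markers stayed under 6.47 in this embryo.

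PargB-2 had 6 members called, all lower (12.2%), against 0.135% of all probe sets, 0.271% of bright ones, and 0.691% in either direction. Rrp15 was 13.9-fold lower than the WT mean (-3.79 ± 0.32, adjusted p = 0.000513), the largest difference of any member in any Parg(110)-/+ embryo. Tsr1 was 2.20-fold lower (adjusted p = 0.0169). Both calls held when any 1 WT embryo was left out. Imp4 measured 8.33 where WT embryos ran from 9.62 to 11.17 (4.30-fold lower, adjusted p = 0.0765). Bms1 was 3.54-fold lower (adjusted p = 0.090), Utp15 1.59-fold (adjusted p = 0.0896), and Nol8 1.72-fold (adjusted p = 0.0760). These 4 were near the threshold. Bms1 was called in 4 of the 9 fits without a WT embryo and the others in 2 of 9. With the spread from all 18 embryos Rrp15, Imp4 and Nol8 were called and Tsr1, Bms1 and Utp15 were not. The oocyte and 2-cell markers of PargB-2 had a median of 0.15 above WT and a mean level of 10.94, inside the WT range. Of the cumulus, granulosa and oviduct markers 1, Inhba, was called higher in PargB-2 (log2 difference 0.78), and their part in the result was not tested.

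PargB-3 had 2 members called, both lower (4.08%), against 0.198% of all probe sets, 0.396% of bright ones, and 0.826% in either direction. Utp15 was 1.78-fold lower (adjusted p = 0.0278) and Tsr1 2.00-fold lower (adjusted p = 0.0294). Both calls held when any 1 WT embryo was left out, and neither was made with the spread from all 18 embryos, which include the other PargB embryos. Of the remaining 47 members 19 were under the WT mean, with a median difference of 0.06. PargA-2 had 1 member called, higher: Rrp36, a processome factor, measured 9.35 against a WT range of 7.00 to 8.29 (3.89-fold, adjusted p = 0.0701), where 0.486% of all probe sets were called higher and 0.635% in either direction. That call held in 2 of 9 fits without a WT embryo and with the spread from all 18 embryos. Rrp36 was also above the WT range in PargB-3, at 8.48, where it was not called.

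**Figure D4:**
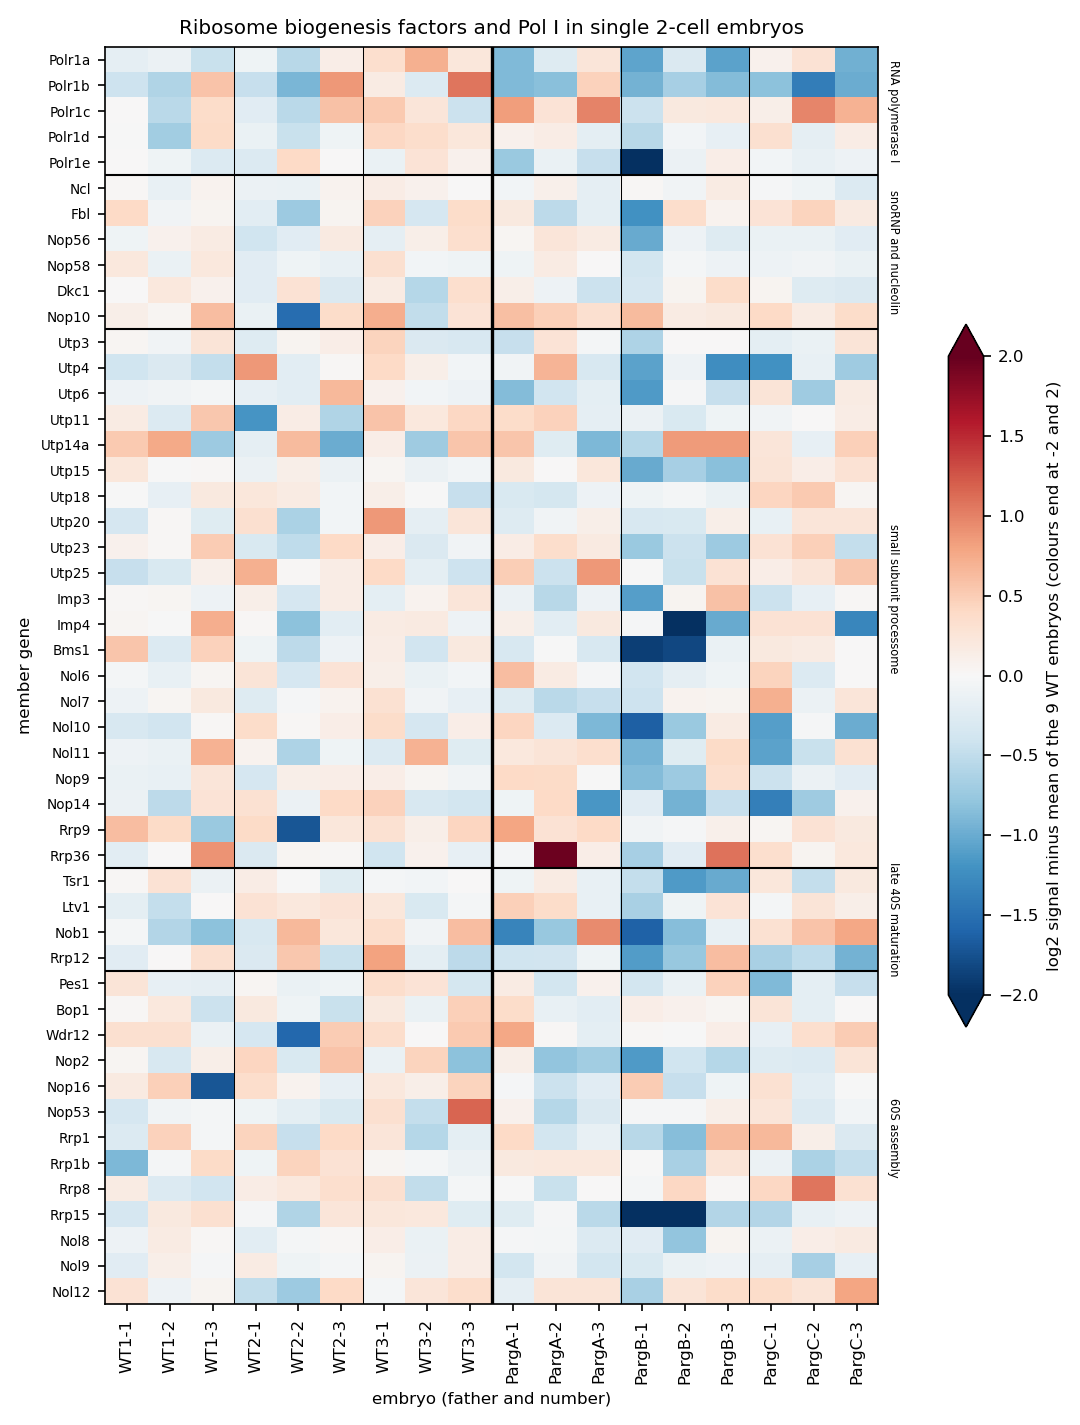
Log2 signal minus the mean of the 9 WT embryos for the 49 members (rows, grouped by role) in the 18 embryos (columns), with blue below and red above the WT mean. PargB-1 is below the WT mean in 44 members and PargB-2 in 38, where 41.2% and 38.0% of all probe sets were below it. Single WT embryos also hold low values, such as Nop16 in WT1-3 (9.42).

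The mean over the 49 members of the difference from the WT mean summarises each embryo. It was -0.62 in PargB-1 and -0.37 in PargB-2. In WT embryos it ran from -0.23 in WT2-2 to 0.22 in WT3-1, and the other Parg(110)-/+ embryos lay between -0.07 and 0.01. The members did not move as a tight block. The median correlation over the 1176 pairs of members was 0.15 across 18 embryos, 0.07 without PargB-1, and 0.11 in the 9 WT embryos, where all points of a pair share the arrays.

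Fathers of 1 genotype were compared with limma's F test. Among the WT fathers 0 members were called (0% of all probe sets, lowest adjusted p = 0.969), and 1 member had an unadjusted p under 0.05 (2.04%, against 4.09% of all probe sets). Among the Parg(110)-/- fathers 0 members were called, against 0.00347% of all probe sets, and 9 members had an unadjusted p under 0.05 (18.4%, against 4.36% of all probe sets). Utp15 had the lowest adjusted p there, 0.30. In 1 fit over all 6 fathers, whose spread also comes from the WT embryos, the F test of the mutant fathers called Utp15 (adjusted p = 0.00302). The share of all probe sets called in that fit was not taken.

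The spread between embryos was larger in Parg(110)-/+ than in WT embryos for 34 of 49 members, and the median ratio of the SDs was 1.36. Over all probe sets 51.5% had the larger SD in Parg(110)-/+ embryos (median ratio 1.02), and over bright ones 52.9% (1.03). Without PargB-1 the count was 29 and the ratio 1.22. Utp15 and Tsr1 were among the members with the steadiest WT levels, with SDs of 0.12 and 0.15 (n = 9), and had SDs of 0.52 and 0.51 in Parg(110)-/+ embryos. Rrp15 went from 0.32 to 1.31. Ncl (0.11), Utp15 (0.12) and Nol9 (0.13) had the lowest SDs in WT. Rrp9 (0.75), Polr1b (0.70) and Nop10 (0.68) had the highest, and all 3 were less spread in Parg(110)-/+ embryos (0.27, 0.50 and 0.18). Rrp9, a U3 snoRNP protein, measured 7.37, 9.40 and 9.71 in WT and 9.02, 9.28 and 9.89 in Parg(110)-/+ embryos. WT2-2 was the lowest WT embryo for Rrp9 and Nop10.

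**Figure D5:**
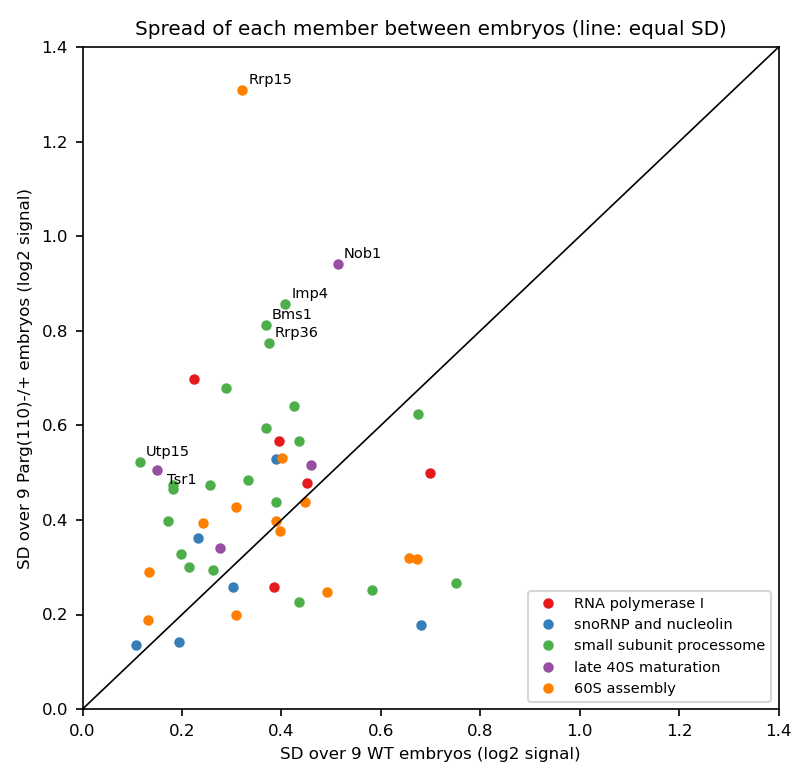
SD over the 9 WT embryos (x axis) and over the 9 Parg(110)-/+ embryos (y axis) of the log2 signal of each member, coloured by role, with a line at equal SD. 34 of 49 points lie above the line, with Rrp15 (0.32 and 1.31) farthest from it.

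Other genes of the pathway were read from lists that do not hold the members. Between the genotypes 0 genes of any list were called. The counts of lower genes are to be set against 32.9% of all and 41.4% of bright probe sets that were lower. At an unadjusted p under 0.05, 1.51% of all and 2.62% of bright probe sets were lower. Of 36 further factors of the small subunit, 29 were lower (median -0.22), led by Wdr75 (-0.37 ± 0.14), Ddx52 (-0.65 ± 0.26) and Dhx37 (-0.20 ± 0.08), with 4 under an unadjusted p of 0.05. Of 45 further large-subunit factors, 35 were lower (median -0.08), led by Nle1 (-0.48 ± 0.14), Mdn1 (-0.34 ± 0.13) and Nvl (-0.46 ± 0.21). 16 of 24 genes of pre-rRNA cleavage and the exosome were lower (median -0.16), with Exosc1 at -1.51 ± 0.48, Mphosph6 at 0.30 ± 0.14 and Xrn2 at -0.44 ± 0.22. Of 12 further snoRNP proteins and assembly factors 8 were lower (median -0.05), the first by p being Pih1d1 (-0.30 ± 0.18), Znhit3 (-0.38 ± 0.23) and Shq1 (-0.09 ± 0.07). Under an unadjusted p of 0.05 the large-subunit list had 3 lower and 0 higher. The cleavage and exosome list had 1 lower and 1 higher, and the snoRNP list had 0.

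Of 11 initiation and termination factors of RNA polymerase I, 7 were lower (median -0.08), with Baz2a at -0.17 ± 0.07, Tcof1 at -0.23 ± 0.12 and Taf1d at -0.08 ± 0.06. The 5 subunits shared between RNA polymerases had 2 lower (median 0.13), with Polr2k at 0.56 ± 0.28, Polr2f at 0.13 ± 0.07 and Polr2h at 0.17 ± 0.15. Of 20 RNA polymerase III genes 14 were lower (median -0.11), with Polr3b at -0.75 ± 0.31, Gtf3c5 at -0.55 ± 0.28 and Polr3k at -0.15 ± 0.09. Nucleolar chaperones and genes of the MYC network were split, 5 lower and 6 higher, with Mycl at 0.15 ± 0.07, Mga at -0.37 ± 0.20 and Mxd1 at -0.49 ± 0.32.

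In PargB-1 most of these lists lay low beside the members. 41 of 45 large-subunit factors were under the WT mean and 7 were called lower, 31 of 36 small-subunit factors with 4 called lower, 11 of 12 snoRNP factors with 4, 19 of 20 RNA polymerase III genes with 3, and 19 of 24 cleavage and exosome genes with 2. Of the initiation and termination factors of RNA polymerase I 9 of 11 were under the WT mean and 0 were called. Twistnb, Cd3eap and Znrd1 were also under the WT mean and not called, as were 3 of 5 shared subunits and 6 of 11 chaperones and MYC network genes. For genes under the WT mean the shares to set these counts against are 41.2% of all and 46.4% of bright probe sets in that embryo. The shares for genes called lower are those given with the members of PargB-1 above. PargB-2 had medians of -0.38 for the small-subunit factors and -0.31 for the cleavage and exosome genes, lower than the -0.14 of the members. The mean score of the small-subunit factors was -0.37 there, as was that of the members. Medians of the large-subunit, snoRNP, RNA polymerase III, MYC network and shared-subunit lists lay between -0.09 and 0.03. In PargB-2 no gene of these lists was called lower, and 1 small-subunit factor, Tsr3, was called higher, while 6 members were called lower there. In PargB-3 1 gene of these lists was called lower, Sbds, which acts in the last steps of the large subunit.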

How the data were processed

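The deposited log2 values were made by the authors with RMA in Partek, which corrects background, quantile-normalizes the arrays, takes log2 and summarizes probes into probe sets. Neither version was named by the sources used here. Quantile normalization can reduce a change that most genes share, and the values of dim probe sets are compressed. Columns were mapped to embryos by their sample identifiers, and 0 columns belonged to no sample.

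The lmFit and eBayes functions of limma 3.58.1 (R 4.3.3) gave two-sided tests for all 28815 probe sets. p-values were adjusted by Benjamini-Hochberg over that whole table, and the study's threshold of 0.1 was used for calls. Comparisons were by genotype, by father, by single embryo and among fathers of 1 genotype. Differences are on the log2 scale and folds are their antilogs. The fits were tested on simulated data. The p-values measure the spread between these embryos, and precision is limited by how few embryos and fathers there were.

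Members and lists were chosen with earlier results of these data known. Values were given for the 12 members with the smallest p between genotypes, every called member, the RNA polymerase I subunits, Fbl, Ncl and Dkc1, and the members with the 3 largest and 3 smallest WT SDs. Other members were counted by role or given with their difference. Of each further list the 3 genes with the smallest p were named; genes named for calls in PargB-2 and PargB-3 were chosen after their values were seen, and Twistnb, Cd3eap and Znrd1 were then moved from the list of initiation factors to the polymerase subunits. Alternatives were 2 other scalings, bright probe sets only, averaged probe sets, embryos or fathers left out, the father as a block, means per father and other sources of the spread. Leaving out embryos in the comparisons other than that of the genotypes, and leaving out PargB-1 and PargB-2 together, was chosen after seeing the data.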

Additional observations from a re-analysis of the deposited data

Results flagged for a closer look

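In each genotype the 9 embryos were searched, member by member, for a value far from the rest, that is, whose gap to the nearest embryo took up more of the whole range than the 95% critical value of Dixon's test allows. Of 49 members tested in each genotype, 6 stood out in WT and 4 in Parg(110)-/+ embryos. Chance gives such a value in about 1 in 20 groups if values follow a normal distribution. The share of all probe sets that stand out by this rule is not given.

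In WT embryos the high values were Utp6 in WT2-3 (log2 value 10.16, the others up to 9.61), Rrp36 in WT1-3 (8.29, the others up to 7.47) and Nop53, a large-subunit factor, in WT3-3 (10.75, the others up to 9.92). The low values were Wdr12 in WT2-2 (6.48, the others from 7.71), Nop16 in WT1-3 (9.42, the others from 10.96) and Rrp1b in WT1-1 (6.61, the others from 7.39).

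In Parg(110)-/+ embryos Polr1b was high in PargA-3 (8.30, the others up to 7.18). Polr1e was low in PargB-1 (8.85, the others from 10.25), as was Nop56 (10.49, the others from 11.24), and Nol8 was low in PargB-2 (10.26, the others from 10.77). 3 of these 4 values came from embryos of PargB, which is not read as a trait of the members without that share.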

How the results depend on the processing

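Of the results recomputed under the alternatives, 571 values kept their direction and side of the threshold or stayed within 1.5 times the reported count, 24 counts moved and none reversed. This rule was coarse for the skew of the members and says little about its size. Without all embryos of PargB the median difference went from -0.10 to -0.02 and the lower members from 36 to 29. Both counted as kept. The genotype comparison called 0 members under every alternative run, and the lower members numbered 32 to 38 when 1 embryo was left out (32 without PargB-1). With bright probe sets only, PargB-2 had 2 members called in place of 6, Rrp15 and Tsr1. With the spread taken from all 18 embryos, in which the other Parg(110)-/+ embryos also count, PargB-1 had 5 called (Bms1, Imp3, Nol10, Nop56 and Polr1e), PargB-2 had 3 (Imp4, Nol8 and Rrp15), PargB-3 had 0 and PargC-2 had 1 (Nol9). The F test among the mutant fathers called 1 member (Utp15) in 1 fit over all 6 fathers. Leaving out 1 embryo at a time, PargB had 1 to 4 members called, with 2 without PargB-1 or without PargC-2 and 4 without PargB-3. The F test had 0 to 1, the 1 being Bms1 without PargB-3. Leaving out 1 WT embryo at a time, PargB-1 had 6 to 10 called, PargB-2 had 2 to 4 and PargB-3 had 2 to 3. PargB-2 had 2 without WT1-2, WT2-3, WT3-1 or WT3-3. PargA-1 had 0 to 1 (1 without WT2-3), PargC-2 had 0 to 1 (Nol9 without WT1-1, Utp6 without WT2-3), and PargA-2 had 0 to 1, with 0 without any of WT1-1, WT1-2, WT2-1, WT2-2, WT2-3, WT3-2 and WT3-3. For the calls under these alternatives no share of all probe sets was taken, so they are not read as results about the members. The causes were not tested. No paired analysis was possible because the fathers differ between the genotypes and share no replicate numbers.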
